A study of Mus musculus with 38 samples.

Results

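The tubulin genes described here are the 10 genes Tuba1a, Tuba1b, Tuba1c, Tuba4a, Tubb2a, Tubb2b, Tubb3, Tubb4b, Tubb5 and Tubb6, taken by symbol from the 23125 genes of a table of polysome-profiling RNA sequencing in mouse oocytes and early embryos. Each gene had 1 row, and all 10 passed the minimum for testing, a geometric mean of 0.1 FPKM (fragments scaled to exon length and to the mapped fragments of the library). Cells of ICR mice at least 6 weeks old were lysed after cycloheximide treatment, the lysates were spread on sucrose gradients, and RNA from pooled heavy fractions (polysome) and pooled light fractions (non-polysome) was sequenced. Germinal vesicle oocytes (GV) were taken without culture and metaphase II oocytes (MII) after 12 h of maturation in vitro, both from hormone-primed females and without nocodazole. Zygotes came from the oviducts of mated, hormone-primed females and were collected at isolation with pronuclei, and two-cell embryos had been cultured from zygotes. M-phase embryos of both ages, called zygote M and two-cell M, were treated with 10 µM nocodazole. Each of the 6 stages had 3 libraries of each fraction, 36 in all. The labels do not say whether the replicates came from separate animals or pools, so the p-values measure only the spread between these libraries. Interphase zygotes were taken at isolation and zygote M embryos later, after a time in culture that is not given. No group of untreated M-phase embryos and no nocodazole-treated oocytes were among the samples. The drug, the embryonic M-phase and the time in culture therefore cannot be told apart in any value given for zygote M or two-cell M.

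α-tubulin and β-tubulin pair into the dimers from which microtubules, and in M-phase the spindle, are built. Nocodazole binds β-tubulin, blocks the growth of microtubules and raises the pool of free dimers. In somatic cells free dimers trigger the decay of tubulin mRNAs while these are being translated: the factor TTC5 recognises the start of the new tubulin chain as it leaves the ribosome and, through SCAPER, recruits the CCR4-NOT deadenylase. The mRNAs concerned are those on polysomes, which is why the coding starts and the fraction are given here beside the levels.

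The coding starts are shown because they encode the stretch of the new chain that TTC5 reads. The first 30 coding bases are given 5′ to 3′ from GENCODE annotation of GRCm38, with the first 4 codons in capitals. Those of the α-tubulin genes are joined across an intron, so their span is longer than the bases shown.
Tuba1a (chr15:98951665-98953453, minus strand): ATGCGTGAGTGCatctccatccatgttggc
Tuba1b (chr15:98933169-98934335, minus strand): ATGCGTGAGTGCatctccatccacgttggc
Tuba1c (chr15:99030422-99034120, plus strand): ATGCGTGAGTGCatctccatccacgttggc
Tuba4a (chr1:75217408-75219195, minus strand): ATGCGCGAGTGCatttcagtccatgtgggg
Tubb2a (chr13:34077900-34077929, minus strand): ATGCGCGAGATCgtgcacatccaggcgggc
Tubb2b (chr13:34130204-34130233, minus strand): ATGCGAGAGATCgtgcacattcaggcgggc
Tubb3 (chr8:123411606-123411635, plus strand): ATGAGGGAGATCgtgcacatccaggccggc
Tubb4b (chr2:25224561-25224590, minus strand): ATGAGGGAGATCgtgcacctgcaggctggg
Tubb5 (chr17:35838024-35838053, minus strand): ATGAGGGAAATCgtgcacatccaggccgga

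Tubb6 lies on chromosome 18 and its sequence is not shown. All 4 α-tubulin genes had TGC or TGT as the fourth codon, all 6 β-tubulin genes had ATC, ATT or ATA there, and all 10 had GAA or GAG as the third codon. The printed starts of Tuba1b and Tuba1c were the same 30 bases. Over the whole coding sequence the α-tubulin genes were 84.8% to 98.3% identical in their 6 pairs, and the β-tubulin genes 80.2% to 96.5% identical in their 15 pairs, with Tubb2a and Tubb2b at 96.5%.

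This likeness limits how far single genes can be read. Of the windows of 150 bases, the read length, 54.7% in the Tuba1a transcript, 57.9% in Tuba1b and 46.7% in Tuba1c were found unchanged in another gene or pseudogene. The share was 27.9% for Tubb2a, 20.1% for Tubb2b and 16.8% for Tubb4b, the last with the pseudogene Tubb4b-ps1, and no window was shared for Tuba4a, Tubb3, Tubb5 or Tubb6. Values of the genes that share windows are therefore uncertain between paralogs. From the steps between low values, the libraries held an estimated 8.49 M to 26.7 M fragments. On that estimate 23 of the 360 tubulin values rested on fewer than 10 fragments, 13 of them of Tubb2b, and 6 stood at the floor of 0.01 FPKM that every library has. Replicates were least alike in the non-polysome libraries of two-cell embryos, with a median correlation across genes of 0.596, and most alike in the polysome libraries of zygotes, with 0.956. FPKM is scaled to the fragments of each library, so a value is relative to the other RNA in that fraction. All FPKM of a library summed to between 88982 and 247361, so equal FPKM are not equal shares of that sum. Fewer cells with a transcript and less of it per cell cannot be told apart.

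Summed over the 10 genes, tubulin mRNA was highest on polysomes in MII and zygote and lowest in zygote M and two-cell M. The tubulin sum was 599 ± 140 FPKM (SD, n = 3) in GV, 1658 ± 287 in MII, 1093 ± 33.1 in zygote, 271 ± 45.3 in zygote M, 434 ± 89.7 in two-cell embryos and 257 ± 68.0 in two-cell M. The zygote M libraries, at 225 to 316, lay wholly below the zygote libraries, at 1055 to 1114. Two-cell M, at 209 to 335, lay just below two-cell, at 338 to 515, and MII, at 1384 to 1957, lay above GV, at 515 to 761. As a share of all FPKM in the polysome libraries, tubulin made up 0.52% ± 0.13 in GV, 1.37% ± 0.23 in MII, 1.18% ± 0.03 in zygote, 0.25% ± 0.03 in zygote M, 0.40% ± 0.08 in two-cell embryos and 0.19% ± 0.03 in two-cell M.

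**Figure D1:**
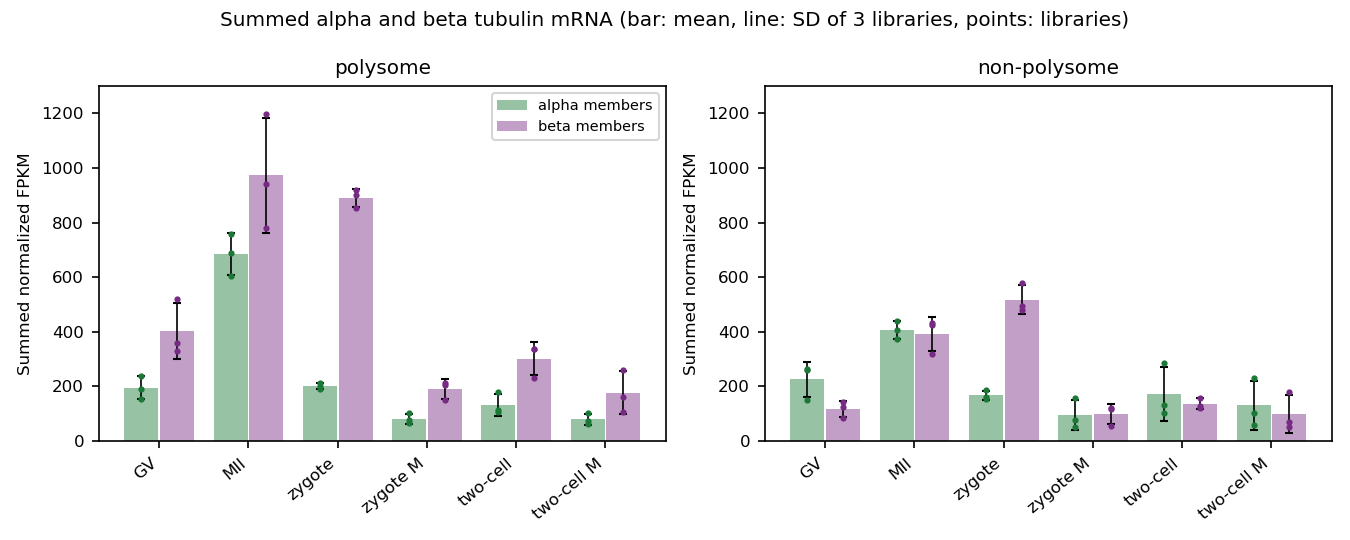
Summed FPKM of the 4 α-tubulin and 6 β-tubulin genes by stage, polysome on the left and non-polysome on the right, with bars for means, lines for the SD of 3 libraries and points for libraries. On polysomes the β-tubulin sum was 891 FPKM in zygote and 190 in zygote M.

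The β-tubulin part of the sum moved more than the α-tubulin part between zygote and zygote M. On polysomes α-tubulin went from 202 ± 11.2 FPKM to 81.2 ± 18.5, and β-tubulin from 891 ± 33.2 to 190 ± 35.4. From GV to MII the α-tubulin sum went from 195 ± 42.2 to 684 ± 77.4 and the β-tubulin sum from 404 ± 103 to 974 ± 211. In the non-polysome libraries the tubulin share of all FPKM was 0.60% ± 0.04 in zygote against 0.17% ± 0.07 in zygote M, and 0.20% ± 0.06 in two-cell against 0.10% ± 0.03 in two-cell M. In this share the libraries of zygote M and zygote did not overlap, nor did those of two-cell M and two-cell, in either fraction. The non-polysome FPKM sums themselves overlapped between two-cell, at 221 to 414 FPKM, and two-cell M, at 151 to 299.8.

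**Figure D2:**
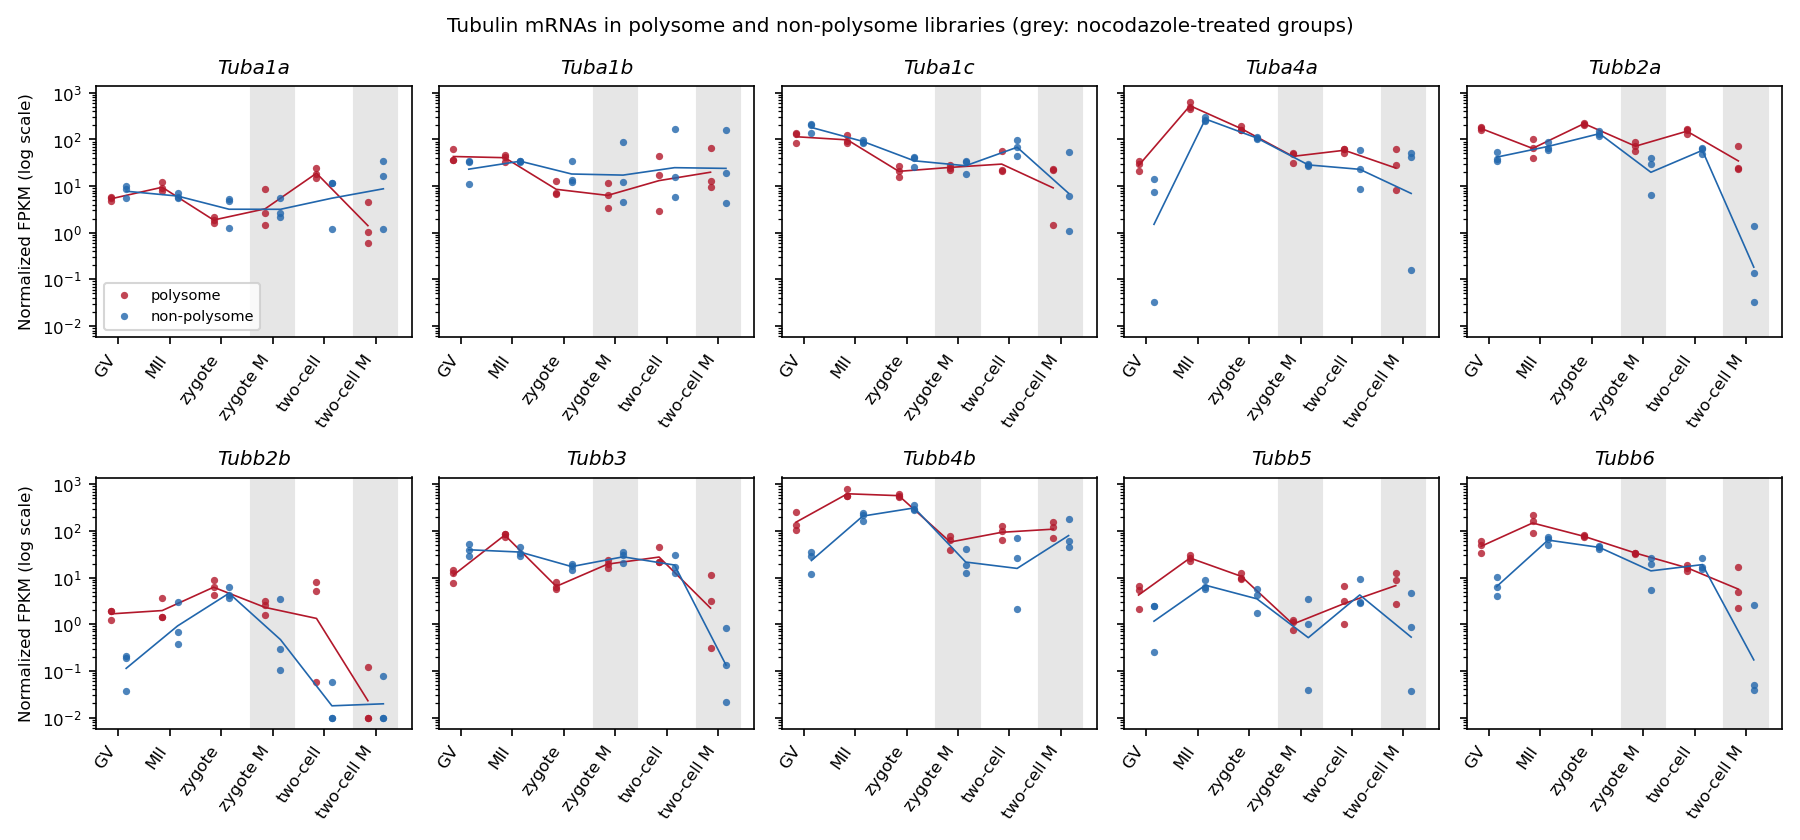
FPKM of each tubulin gene in each library on a log axis, by stage, with polysome and non-polysome libraries in different colours and the nocodazole-treated groups shaded grey. The scatter of Tuba1b in the two-cell groups and the low non-polysome points of Tubb2a, Tubb3 and Tubb6 in two-cell M stand out.

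The meiotic M-phase, which was reached without nocodazole, gives the change of each tubulin mRNA from prophase to metaphase. Tuba1a, Tuba4a, Tubb3, Tubb4b, Tubb5 and Tubb6 had higher polysome values in all 3 MII libraries than in any GV library. Tuba4a, an α-tubulin whose last residue is not the tyrosine of most α-tubulins, stood at 34.1, 20.9 and 29.3 FPKM in GV and at 508, 459 and 636 in MII. Its log2 difference was 4.26 (SE 1.56, adjusted p = 0.114 in limma).
Tubb3, the β-tubulin best known from neurons, stood at 12.5, 14.7 and 7.78 FPKM in GV and at 86.2, 73.2 and 85.6 in MII, with a log2 difference of 2.85 (SE 0.92, adjusted p = 0.063). Tubb4b, a widely expressed β-tubulin, stood at 257, 105 and 135 FPKM against 562, 551 and 796, with a log2 difference of 2.03 (SE 0.74, adjusted p = 0.115). Tubb5, the β-tubulin of dividing cells, stood at 6.63, 2.11 and 5.39 FPKM against 26.2, 22.8 and 30.4, and its log2 difference was 2.64 (SE 1.32, adjusted p = 0.295). The MII and GV libraries of these genes did not overlap, and none passed the threshold.

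A gene was called when its adjusted p was under 0.05 and its log2 difference beyond 1. In limma 0 of the 10 tubulins were called between MII and GV polysomes, where 6.11% of the 7967 tested genes were called, and 3 had an unadjusted p under 0.05. The groups did not overlap for 7 of the 10, against 47.5% of all tested genes. With 3 libraries against 3 an exact two-sided permutation test cannot give a p below 0.1. The result depended on which libraries set the spread: a fit to the polysome libraries alone called 5 of the 10, Tuba4a, Tubb3, Tubb4b and Tubb5 higher and Tubb2a lower, where that fit called 14.5% of all genes, 8.6% higher and 5.91% lower. Of the others, Tubb6 had a log2 difference of 1.66 (SE 0.93), Tubb2a of -1.42 (SE 0.77), Tuba1a of 0.83, Tubb2b of 0.24, Tuba1b of -0.08 and Tuba1c of -0.22. The median was 1.24 over the tubulins and 0.18 over all tested genes.

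In the non-polysome libraries 3 tubulins rose from GV to MII, where 16.6% of genes were called and 13.5% were called higher. Tuba4a went from 7.39, 0.0332 and 14.2 FPKM to 252, 266 and 309, Tubb4b from 29.7, 11.7 and 35.99 to 167, 224 and 243, and Tubb6 from 4.12, 6.19 and 10.3 to 50.7, 67.3 and 75.7. No MII library overlapped a GV library for any of these genes, which was so for 7 of the 10 tubulins and 47.6% of all tested genes. Without a call, Tubb2a, Tubb2b and Tubb5 were also higher in MII without overlap. Tuba1c was lower without overlap, at 211, 134 and 209 FPKM in GV and 85.1, 99.2 and 88.7 in MII. Of all tested genes 29.9% were higher and 17.7% lower without overlap. The log2 differences were 7.50 for Tuba4a (SE 1.56, adjusted p = 0.00129), 3.17 for Tubb4b (SE 0.74, adjusted p = 0.00368) and 3.31 for Tubb6 (SE 0.93, adjusted p = 0.0142). One GV library, at 0.0332 FPKM, sets much of the size and error of the Tuba4a value. Tubb6 lost its call when each library was centred on its median gene (adjusted p = 0.0524), and with GV replicate A or MII replicate C left out (adjusted p = 0.0593 and 0.0519). Its call was also lost in a fit to the non-polysome libraries alone (adjusted p = 0.0918), and that of Tuba4a in a fit to the MII and GV libraries alone (adjusted p = 0.0566).

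**Figure D3:**
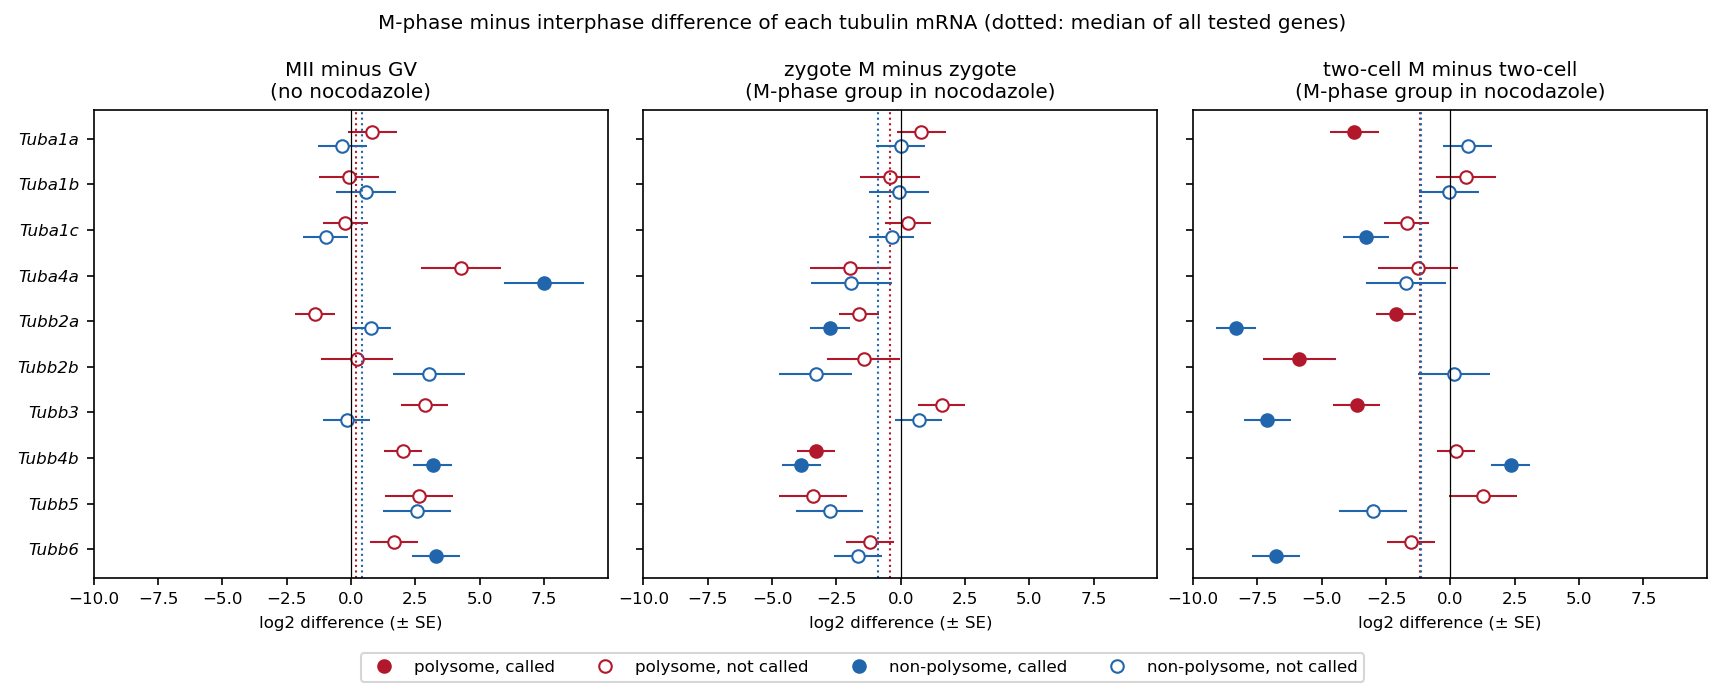
Log2 difference of each tubulin mRNA between the M-phase and interphase group of oocytes, zygotes and two-cell embryos, with lines for SE, filled points where the gene was called and dotted lines at the median of all tested genes. Tubb4b is called lower in zygote M in both fractions, and its non-polysome point is called higher in MII and in two-cell M.

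Between zygote and zygote M, Tubb4b fell on polysomes. It stood at 535, 570 and 611 FPKM in zygote and at 78.1, 65.0 and 38.2 in zygote M, so every zygote M library was far below every zygote library. The log2 difference was -3.30 (SE 0.74, adjusted p = 0.00491). It was the single tubulin called, where 5.75% of genes were called and 2.51% were called lower, and it was called with any library left out.

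Another 5 tubulins were lower in all 3 zygote M polysome libraries than in any zygote library, without a call. With Tubb4b this makes 6 of the 10, where 37.2% of all tested genes were lower without overlap. Tubb5 stood at 12.5, 9.55 and 9.99 FPKM in zygote and at 1.24, 0.746 and 1.10 in zygote M (log2 difference -3.40, SE 1.32, adjusted p = 0.151). Tuba4a stood at 159, 190 and 162 FPKM against 32.0, 52.3 and 48.9 (log2 difference -1.97, SE 1.56, adjusted p = 0.663). Tubb2a, a β-tubulin abundant in the brain, stood at 217, 231 and 209 FPKM against 71.6, 89.6 and 57.4 (log2 difference -1.61, SE 0.77, adjusted p = 0.299).
These 3 genes were called lower when the fit held only polysome libraries, which called 4 of the 10 with Tubb4b, against 11.9% of all genes called and 7.1% called lower in that fit. Tubb6, which can weaken microtubule arrays when it is abundant, stood at 76.4, 80.0 and 73.7 FPKM against 32.8, 33.6 and 34.4 (log2 difference -1.19, SE 0.93, adjusted p = 0.656). Tubb2b, close kin of Tubb2a, stood at 6.37, 4.33 and 8.71 FPKM against 3.09, 1.54 and 2.54, also without overlap (log2 difference -1.44, SE 1.41, adjusted p = 0.776).

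Tubb3 was the opposite case, at 7.89, 5.61 and 6.14 FPKM in zygote polysomes and 19.8, 23.7 and 15.7 in zygote M, all higher (log2 difference 1.59, SE 0.92, adjusted p = 0.437). The log2 differences were 0.80 for Tuba1a, -0.43 for Tuba1b and 0.28 for Tuba1c, each with overlapping groups. In all, 7 of the 10 tubulins had groups that did not overlap, where 56.5% of all tested genes did so. The median was -1.31 over the tubulins against -0.43 over all genes.

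The non-polysome libraries of zygote and zygote M gave 2 called tubulins, both lower, where 10.4% of genes were called and 9.36% were called lower. Tubb4b went from 295, 287 and 359 FPKM to 12.6, 41.5 and 19.0 (log2 difference -3.86, SE 0.74, adjusted p = 0.000917). Tubb2a went from 133, 119 and 149 FPKM to 6.38, 29.9 and 40.5 (log2 difference -2.75, SE 0.77, adjusted p = 0.0206). Neither gene's groups overlapped, which was so for 6 of the 10 tubulins and 36.6% of all tested genes, and Tubb4b was lower in the M-phase group in both fractions. The call of Tubb2a was lost when zygote M replicate A was left out (log2 difference -1.94, adjusted p = 0.161), and also without any 1 of the zygote libraries (adjusted p of 0.0537 to 0.0732). It was lost as well with the replicate letter as a replicate block (adjusted p = 0.0649), with non-polysome libraries alone (adjusted p = 0.133), with the zygote and zygote M libraries alone (adjusted p = 0.0544) and with each library centred on its median gene (-2.05, adjusted p = 0.0972).

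Between two-cell and two-cell M polysomes Tuba1a, Tubb2a, Tubb2b and Tubb3 fell, 4 of the 10, where 36.3% of genes were called and 28.1% were called lower. Tuba1a, an α-tubulin prominent in neurons, stood at 24.1, 15.1 and 18.4 FPKM in two-cell and at 1.04, 4.65 and 0.589 in two-cell M (log2 difference -3.73, SE 0.96, adjusted p = 0.00324). Tubb3 stood at 21.5, 44.3 and 22.0 FPKM against 0.306, 3.21 and 11.1 (log2 difference -3.64, SE 0.92, adjusted p = 0.00282). With 1 library left out the Tubb3 difference ranged from -4.80 to -2.21 and was called each time. Tubb2a stood at 166, 157 and 130 FPKM against 24.5, 22.9 and 74.0 (log2 difference -2.12, SE 0.77, adjusted p = 0.0334).
The M-phase libraries of these 3 genes all lay below the interphase libraries. Tubb2b stood at 5.04, 8.002 and 0.0586 FPKM against 0.01, 0.01 and 0.119, and its groups overlapped through 1 two-cell library (log2 difference -5.86, SE 1.41, adjusted p = 0.00184). With 2 libraries at the floor, the size of that difference rests on the floor.

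The median of all tested genes was itself at -1.17 in this comparison, and -1.61 over the tubulins. With each library centred on its median gene, Tuba1a (log2 difference -2.32, adjusted p = 0.0603) and Tubb2a (log2 difference -0.70, adjusted p = 0.484) were no longer called and 2 calls were left. Those 2, Tubb2b and Tubb3, were lost in a fit to the two-cell and two-cell M libraries alone (adjusted p = 0.114 and 0.103), so each of the 4 calls ended under 1 of these settings. The call of Tubb2a was also lost without any 1 of 5 of the 6 libraries, two-cell M replicate C being the exception (adjusted p of 0.0564 to 0.116). The share of 4 of 10 is near the background, and the groups did not overlap for 3 of the 10 against 43.4% of all tested genes.

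Tubb4b did not follow its course in the zygote. On two-cell polysomes it stood at 126, 100 and 64.8 FPKM, and in two-cell M at 121, 68.9 and 157, with overlapping groups and a log2 difference of 0.22 (SE 0.74, adjusted p = 0.844). Tubb5 stood at 3.09, 6.70 and 1.04 FPKM against 12.5, 8.90 and 2.76 (log2 difference 1.28, SE 1.32, adjusted p = 0.472). Tuba4a stood at 50.8, 63.3 and 62.7 FPKM against 28.3, 8.34 and 61.7 (log2 difference -1.26, SE 1.56, adjusted p = 0.555).
These groups overlapped. The remaining log2 differences were 0.60 for Tuba1b, -1.70 for Tuba1c and -1.52 for Tubb6. With 1 library left out, values ranged from -2.38 to -0.38 for Tuba1c and from -2.30 to -0.85 for Tubb6. For Tuba4a the range was -1.93 to -0.49 and for Tubb5 0.57 to 1.92, and none of these was called. Centring on the median gene gave -0.28 for Tuba1c and -0.11 for Tubb6. Tuba1b, a main α-tubulin of dividing cells, varied widely between libraries of 1 group, at 17.3, 43.7 and 2.97 FPKM in two-cell and 12.6, 65.8 and 9.39 in two-cell M.

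The non-polysome libraries of two-cell M held little Tubb2a, Tubb3 and Tubb6. Tubb2a stood at 61.3, 67.0 and 48.4 FPKM in two-cell and at 0.0319, 1.42 and 0.135 in two-cell M (log2 difference -8.32, SE 0.77, adjusted p = 1.52e-09). Tubb3 stood at 12.4, 31.0 and 16.7 FPKM against 0.134, 0.851 and 0.0210 (log2 difference -7.12, SE 0.92, adjusted p = 5.04e-07). Tubb6 stood at 16.9, 26.2 and 15.5 FPKM against 2.64, 0.0492 and 0.0391 (log2 difference -6.79, SE 0.93, adjusted p = 1.41e-06).
All 3 genes were lower in every two-cell M library, and these are the 3 tubulins whose groups did not overlap, where 28.9% of all tested genes had groups that did not overlap. Of these two-cell M values 6 of 9 rested on an estimated 0.4 to 3.4 fragments, so the sizes are uncertain. With each library centred on its median gene all 3 were called at smaller sizes, -4.66 for Tubb2a, -3.46 for Tubb3 and -3.13 for Tubb6, and Tubb6 lost its call in a fit to the two-cell and two-cell M libraries alone (adjusted p = 0.081). The same centring called Tubb4b (5.99), Tuba1a (4.32), Tuba1b (3.6) and Tubb2b (3.80) higher, the last from values at or near the floor. Without the share of all genes called after centring, these calls cannot be set against the background. The centring took out a difference of -3.65 between the library medians on the log2 scale. The median of the gene differences was -1.14, so centred values that include the non-polysome two-cell M libraries are uncertain in level.
Tuba1c, which is expressed in many tissues, stood at 70.5, 98.7 and 45.2 FPKM against 6.05, 52.9 and 1.08 and was called lower with overlapping groups (log2 difference -3.28, SE 0.88, adjusted p = 0.00432). Tubb4b was called higher, at 26.8, 2.10 and 69.3 FPKM against 46.2, 61.1 and 178 (log2 difference 2.34, SE 0.74, adjusted p = 0.015).
These are 4 tubulins lower and 1 higher, where 36.1% of genes were called, 28.0% lower and 8.17% higher. The call of Tubb4b rested on the two-cell library at 2.10 FPKM, and without it the log2 difference was 0.88 (adjusted p = 0.24). It was also lost without two-cell M replicate C (1.76, adjusted p = 0.0927), with quantile normalization (adjusted p = 0.0588), with non-polysome libraries alone (adjusted p = 0.0814) and with the groups compared alone (adjusted p = 0.375). The call of Tuba1c was lost without two-cell M replicate C (-1.93, adjusted p = 0.0652) and with the groups compared alone (adjusted p = 0.265), and its difference turned to 0.38 with each library centred on its median gene.

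Whether the embryonic M-phase change differed from the meiotic one was tested as a difference of differences. Both comparisons use the same MII and GV libraries. On polysomes the zygote change was below the meiotic change for Tubb4b by -5.33 (SE 1.05, adjusted p = 0.000935) and for Tubb5 by -6.04 (SE 1.86, adjusted p = 0.0373) on the log2 scale, where 9.51% of genes were called and 5.06% were called lower. Tubb4b and Tubb5 were higher in MII than in GV and lower in zygote M than in zygote in every library. The value was -6.23 for Tuba4a (SE 2.21, adjusted p = 0.075) and -2.85 for Tubb6 (SE 1.32, adjusted p = 0.198), and it lay between -1.67 and 0.51 for the other 6. The call of Tubb5 was lost with 11 of the 12 libraries involved left out 1 at a time. It was also lost with each library centred on its median gene (-5.34, adjusted p = 0.0598). With polysome libraries alone Tuba4a and Tubb6 were called too, where 20.2% of genes were called and 12.4% were called lower in that fit. Tuba4a was also called in limma with the replicate letter as a replicate block (-6.50, adjusted p = 0.0499).

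For the two-cell embryo the polysome change was below the meiotic one for Tubb3 by -6.49 (SE 1.30, adjusted p = 0.000527), Tuba1a by -4.56 (SE 1.35, adjusted p = 0.0144) and Tubb2b by -6.10 (SE 1.99, adjusted p = 0.0257). Of all genes 23.5% were called and 18.7% were called lower, with a median of -1.41. Tubb3 had all MII libraries above all GV libraries and all two-cell M libraries below all two-cell libraries. With each library centred on its median gene, Tuba1a (adjusted p = 0.127) and Tubb2b (adjusted p = 0.106) lost their calls and Tubb3 was called. The call of Tubb2b was lost without any 1 of 6 of the 12 libraries (adjusted p of 0.0506 to 0.0902), and its size rests on the 2 two-cell M libraries at the floor. Among genes without a call the value was -5.53 for Tuba4a (SE 2.21, adjusted p = 0.0693), -3.18 for Tubb6 (SE 1.32, adjusted p = 0.0812), -1.80 for Tubb4b (SE 1.05, adjusted p = 0.225) and -1.36 for Tubb5 (SE 1.86, adjusted p = 0.64). With polysome libraries alone Tuba4a, Tubb4b and Tubb6 were called too, where that fit called 36.6% of genes, 27.4% lower. Tuba4a was also called in limma with the replicate letter as a replicate block (-5.53, adjusted p = 0.0461).

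**Figure D4:**
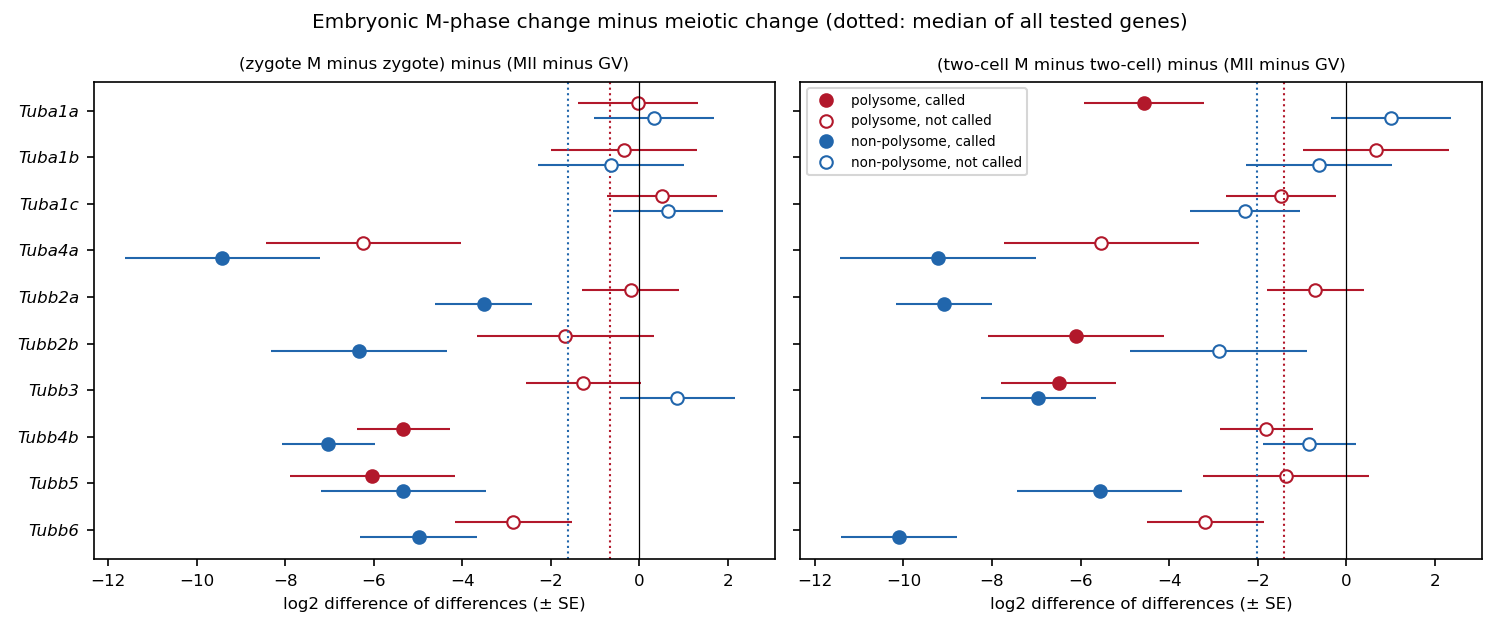
Embryonic M-phase change minus meiotic change of each tubulin mRNA on the log2 scale, for zygotes on the left and two-cell embryos on the right, with lines for SE, filled points where the gene was called and dotted lines at the median of all tested genes. On polysomes Tubb4b and Tubb5 are called on the left, and Tuba1a, Tubb2b and Tubb3 on the right.

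In the non-polysome libraries 6 tubulins were called lower in this test for the zygote, where 24.3% of genes were called and 20.8% were called lower, and 5 for the two-cell embryo, where 30.2% were called and 25.8% were called lower. Tuba4a was called in both, with -9.42 (SE 2.21) for the zygote and -9.22 (SE 2.21) for the two-cell embryo, and so were Tubb2a, with -3.52 (SE 1.09) and -9.08 (SE 1.09), Tubb5, with -5.33 (SE 1.86) and -5.56 (SE 1.86), and Tubb6, with -4.98 (SE 1.32) and -10.10 (SE 1.32). Tubb4b and Tubb2b were called for the zygote, and Tubb3 for the two-cell embryo. The median of all genes was -1.60 for the zygote and -2.00 for the two-cell embryo, and the library medians that the centring took out differed by -1.33 and -4.28. After it 2 of the 6 zygote calls were left, Tuba4a and Tubb4b, and those of Tubb2a (-2.19, adjusted p = 0.135), Tubb2b (-5.00, adjusted p = 0.0718), Tubb5 (-4.00, adjusted p = 0.114) and Tubb6 (-3.65, adjusted p = 0.0511) were lost. For the two-cell embryo the centring ended the calls of Tubb5 (-1.29, adjusted p = 0.614), Tuba4a (-4.94, adjusted p = 0.0832) and Tubb3 (-2.67, adjusted p = 0.0642), and it called Tuba1a (5.29, adjusted p = 0.00303) and Tubb4b (3.45, adjusted p = 0.00664) higher than in meiosis.
The zygote call of Tubb2b was lost without GV replicate B, MII replicate C or zygote M replicate A (adjusted p of 0.0647 to 0.0694) and with quantile normalization (adjusted p = 0.0806), and that of Tubb2a without zygote M replicate A (adjusted p = 0.0751). The two-cell call of Tuba4a was lost with the groups compared alone (adjusted p = 0.0993). The zygote call of Tubb5 was lost without any 1 of 7 of the 12 libraries (adjusted p of 0.0528 to 0.147), and its two-cell call without GV replicate B, two-cell replicate C or two-cell M replicate C (adjusted p of 0.0595 to 0.0987). The Tubb5 values were -3.47 without zygote M replicate C, at 0.0389 FPKM, and -3.64 without two-cell M replicate C, at 0.0366 FPKM. With non-polysome libraries alone Tubb2a, Tubb5 and Tubb6 lost their zygote calls (adjusted p of 0.0541 to 0.149) and Tubb5 its two-cell call (adjusted p = 0.113).

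The M-phase groups were also set against each other. On polysomes zygote M was below MII for Tubb4b by -3.44 (SE 0.74, adjusted p = 0.00192) and for Tubb5 by -4.71 (SE 1.32, adjusted p = 0.0163), where 12.4% of genes were called and 8.95% were called lower. The call of Tubb5 was lost without MII replicate A, MII replicate C or zygote M replicate B (adjusted p of 0.052 to 0.0623). Two-cell M was below MII for 7 of the 10 tubulins, where 53.0% of genes were called and 45.2% were called lower, with a median of -2.64. These 7 were Tuba1a, Tuba1c, Tuba4a, Tubb2b, Tubb3, Tubb4b and Tubb6. With each library centred on its median gene the calls of Tuba1a, Tuba1c, Tuba4a and Tubb4b were lost (adjusted p of 0.267 to 0.739), and Tubb2b, Tubb3 and Tubb6 were called. No share of all genes called is given for that setting. The call of Tuba1a was also lost without MII replicate A, two-cell M replicate A or two-cell M replicate C (adjusted p of 0.0564 to 0.0941) and with quantile normalization (adjusted p = 0.142), and that of Tuba4a without two-cell M replicate B (adjusted p = 0.0843). Tubb2a was the β-tubulin with the smallest distance, at 0.16 (SE 0.77) for zygote M against MII and -0.89 (SE 0.77) for two-cell M against MII.

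The polysome change was then compared with the non-polysome change, since tubulin autoregulation acts on mRNAs under translation. In oocytes and in zygotes 0 tubulins were called in limma, where 0.163% and 0.289% of genes were called. With so few calls among all genes, this does not show that the changes were alike in both fractions. The log2 values ranged from -3.24 for Tuba4a to 3.02 for Tubb3 in oocytes. In zygotes they ranged from -0.63 for Tubb5 to 1.87 for Tubb2b. In oocytes and zygotes 1 and 0 tubulins had an unadjusted p under 0.05 in limma, as did 7.37% and 7.52% of all tested genes. For Tubb4b from zygote to zygote M the polysome change minus the non-polysome change was 0.55 (SE 1.05). In the two-cell embryo 2 tubulins were called, both with a less negative difference on polysomes than off them, where 5.75% of genes were called and 3.20% were called higher. The value was 6.20 for Tubb2a (SE 1.09, adjusted p = 0.000497) and 5.26 for Tubb6 (SE 1.32, adjusted p = 0.0141). It was -4.40 for Tuba1a (SE 1.35, adjusted p = 0.0513), which was not called. No value is read for Tubb2b, which stood at 0 to 2.7 estimated fragments in all libraries of these groups except 2 of two-cell polysomes. Centring on the median gene ended the call of Tubb6 (3.02, adjusted p = 0.111). With it Tubb2a was called higher (3.96) and Tuba1a (-6.64), Tubb4b (-4.35) and Tubb2b, whose value rests on the floor, lower. No share of all genes called after centring is given, so these calls are not set against the background. Tubb6 was also lost after 1 was added to each FPKM (adjusted p = 0.0576) and with quantile normalization (adjusted p = 0.119), and a fit to the groups compared alone called 0. Libraries of both fractions with the same stage and letter may come from 1 gradient, and with the gradient as a replicate block Tuba1a was called too (adjusted p = 0.0377).

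Within a stage, the polysome level of tubulin mRNAs relative to the non-polysome level was called higher for 1 gene in GV, where 4.96% of genes were called and 2.61% were called higher. The counts were 0 in MII (0.753% of genes called), 0 in zygote (1.38%), 0 in zygote M (1.92%), 2 in two-cell embryos (16.1%, and 9.69% higher) and 3 in two-cell M (14.8%, and 9.70% higher). In MII, zygote and zygote M, limma gave 1, 0 and 1 tubulins with an unadjusted p under 0.05, against 6.14%, 7.38% and 12.3% of all tested genes. The gene in GV was Tubb4b (log2 difference 2.73, SE 0.74, adjusted p = 0.0297), and its call was lost without any 1 of 4 of the 6 libraries. In two-cell embryos they were Tubb4b (2.57, SE 0.74, adjusted p = 0.0186) and Tubb2b (6.22, SE 1.41, adjusted p = 0.00326), and in two-cell M Tubb2a (7.57, SE 0.77, adjusted p = 4.63e-08), Tubb3 (4.05, SE 0.92, adjusted p = 0.00291) and Tubb6 (5.04, SE 0.93, adjusted p = 0.000363). The size for Tubb2b rests on the floor, since its non-polysome two-cell values were 0.01, 0.0565 and 0.01 FPKM, and it was 1.91 after 1 was added to each FPKM. After centring on the median gene Tubb3 in two-cell M was at 1.55 and not called (adjusted p = 0.137). Under the alternatives that kept all libraries of these groups, the lowest two-cell M values were 4.66 for Tubb2a and 2.13 for Tubb6. The sizes for Tubb2a, Tubb3 and Tubb6 are uncertain, since several of their non-polysome two-cell M values rested on an estimated 0.4 to 3.4 fragments. All 5 calls in two-cell embryos and two-cell M were lost in fits to the groups compared alone (adjusted p of 0.119 to 0.439). The Tubb4b call in two-cell embryos also rested on the non-polysome library at 2.10 FPKM, without which the difference was 1.12 (adjusted p = 0.206), and it was lost as well without polysome replicate A or B (adjusted p = 0.069 and 0.0504). In this fit to all libraries no tubulin was called lower on polysomes than off them at any stage, but other settings called some lower. In a fit to the zygote libraries alone Tubb3 was called lower on polysomes (-1.41, adjusted p = 0.00487) and Tubb5 higher (1.60, adjusted p = 0.036). After centring on the median gene Tuba1a (-5.13, adjusted p = 0.000122) and Tubb4b (-2.04, adjusted p = 0.023) were called lower on polysomes in two-cell M. With the gradient as a replicate block the count in two-cell M was 5, where 16.9% of genes were called, the other two being Tubb5, higher on polysomes (3.67, adjusted p = 0.0457), and Tuba1a, lower (-2.63, adjusted p = 0.0483). The block ended no call of a tubulin between fractions.

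The makeup of the tubulin mRNA on polysomes shifted between isotypes. Tuba1c was the main α-tubulin mRNA in GV, at 59.8% ± 6.95 of the α-tubulin sum, and Tuba4a was 14.7% ± 4.03. In MII Tuba4a made up 77.8% ± 5.30, in zygote 84.1% ± 4.66 and in zygote M 54.8% ± 8.48. The Tuba4a share of the 3 zygote M libraries, 48.6% to 64.5%, lay below that of zygote, 79.2% to 88.5%, and above that of GV, 10.9% to 18.9%. In two-cell M it ranged from 8.13% to 84.3%, so no share can be given for that group with any precision.

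Among β-tubulins Tubb4b and Tubb2a took most of the polysome sum. The Tubb4b share was 39.5% ± 8.78 in GV, 65.6% ± 5.59 in MII, 64.1% ± 2.12 in zygote, 31.2% ± 6.15 in zygote M, 31.7% ± 4.90 in two-cell embryos and 66.3% ± 7.20 in two-cell M. That of Tubb2a was 43.8% ± 7.47, 7.14% ± 3.26, 24.6% ± 1.60, 38.3% ± 3.6, 50.7% ± 4.80 and 21.6% ± 6.64 in the same order. The Tubb4b share was thus lower in zygote M than in zygote, while the two-cell M share exceeded that of two-cell, without overlap in either case. In the non-polysome libraries of two-cell M, Tubb4b was 94.0% ± 5.24 of the β-tubulin sum and Tubb2a 0.74% ± 1.16.

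**Figure D5:**
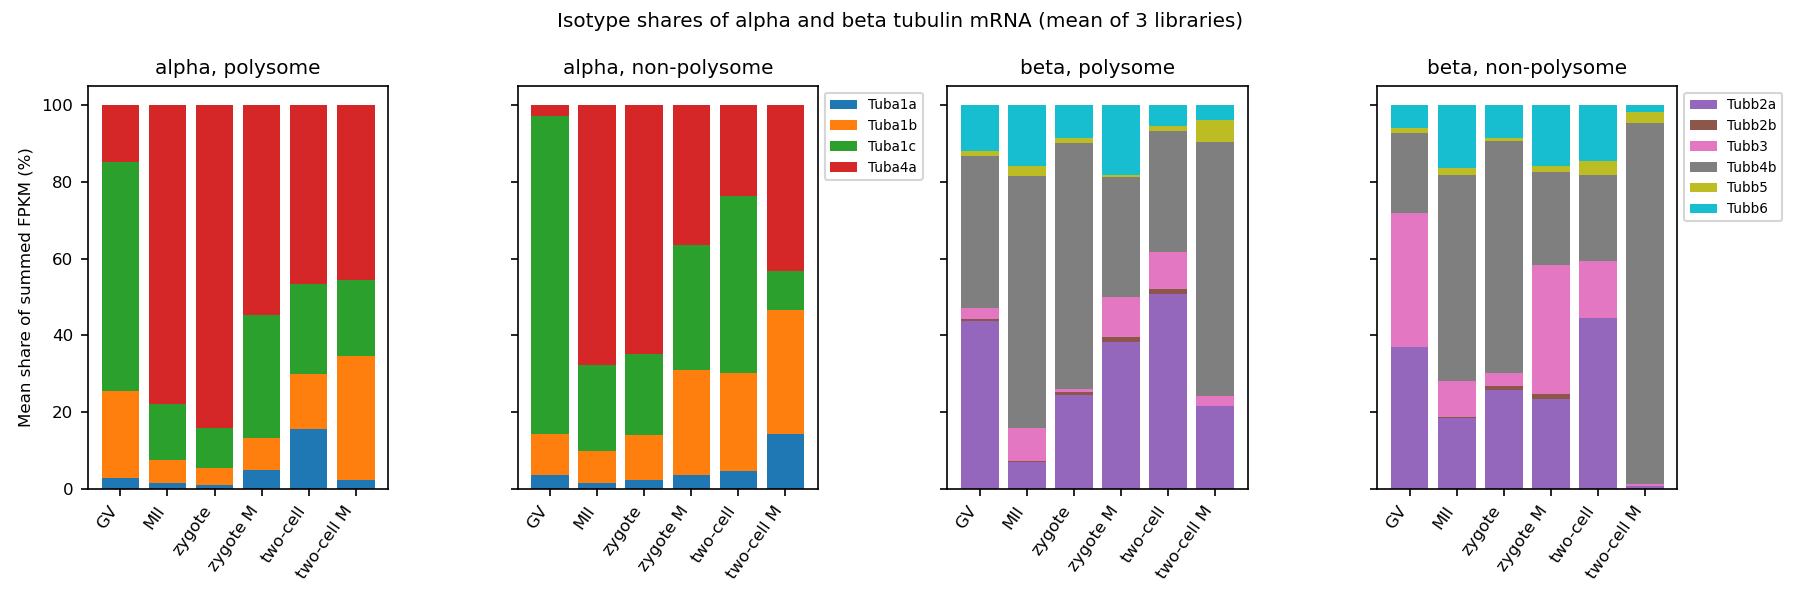
Mean share of each isotype in the summed α-tubulin or β-tubulin FPKM by stage and fraction, over 3 libraries. On polysomes Tuba1c leads the α-tubulins in GV and Tuba4a has the largest share in MII, zygote, zygote M and two-cell embryos, and the Tubb4b share is 64.1% in zygote and 31.2% in zygote M.

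Across all 6 stages, 8 of the 10 tubulins had a stage effect on polysomes by limma's moderated F-test, the exceptions being Tuba1b and Tuba4a, where 62.9% of genes passed. In the non-polysome libraries it was again 8 of 10, the exceptions being Tuba1a and Tuba1b, where 78.3% passed. By geometric mean Tubb6 had the most ordered polysome levels, MII, zygote, GV, zygote M, two-cell, two-cell M from high to low, and of its neighbours two-cell and two-cell M alone overlapped. Tubb4b went MII, zygote, GV, two-cell M, two-cell, zygote M, and of its neighbours zygote and GV alone did not overlap. Tubb5 had the same order at a lower level except that GV lay between two-cell M and two-cell, and of its neighbours MII and zygote alone did not overlap. For Tuba1b no neighbouring stages were apart in either fraction. The highest polysome group mean exceeded the lowest 5.41-fold for Tubb2a, 10.5-fold for Tubb4b and 19.0-fold for Tuba4a, and no fold is given for Tubb2b, whose two-cell M libraries include 2 at the floor.

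Over the 12 group means of log2 FPKM, the tubulins most alike were Tubb2a and Tubb6 (Pearson r = 0.885), followed by Tubb3 and Tubb6 (0.801), Tuba1c and Tubb3 (0.766), Tubb2a and Tubb3 (0.751) and Tuba4a and Tubb4b (0.749). The groups share stages and fractions, and the values are a description. Of all tested genes, those with a profile most like Tubb4b were Tubb4b-ps1 (0.963), which shares sequence with it, Polrmt (0.951) and Pmpcb (0.948). For Tuba4a they were Thap4 (0.957), Mvd (0.956) and Rtcb (0.955).

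Genes that work with tubulin were counted from lists. Of 8 other α-tubulin and β-tubulin genes 4 were tested, and Tubb4b-ps1 was called lower in zygote M polysomes, at 28.5 ± 3.96 FPKM in zygote and 3.61 ± 1.47 in zygote M (log2 difference -3.06, SE 0.70, adjusted p = 0.00571). Since reads of Tubb4b can be assigned to it, this is not a separate observation. In the other 2 polysome M-phase comparisons none of the 4 was called in limma, and the most abundant were Tuba3a, an α-tubulin, with log2 differences of 2.63 (SE 1.82) from GV to MII and -3.40 (SE 1.82) from two-cell to two-cell M, and Tubb4b-ps1, with 1.45 (SE 0.70) and -1.07 (SE 0.70).

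The γ-tubulin complex, which starts microtubules, had 8 of 12 genes tested. Tubg2 fell from GV to MII (log2 difference -3.47, adjusted p = 9.38e-06), Tubg1 rose from zygote to zygote M (1.94, adjusted p = 0.00891), and Tubg2 (-2.16) and Mzt2 (-4.07) fell from two-cell to two-cell M. Of the 13 symbols listed for autoregulation 12 were present and 8 were tested. Those 8 were all subunits of CCR4-NOT, and neither Ttc5 nor Scaper was among them. Cnot8, a deadenylase, rose from GV to MII (3.87, adjusted p = 0.00167). In zygote M 0 of the 8 were called in limma, with Cnot11 at -0.99 and Cnot8 at -0.10. In two-cell M Cnot11 (-5.14), Cnot7 (-4.02) and Cnot3 (-2.65) fell and Cnot8, named here after its value was seen, rose (2.51).

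Tubulin folding cofactors and prefoldin, which deliver and assemble the dimer, had 10 of 13 genes tested. Pfdn5 fell from GV to MII (-2.67, adjusted p = 6.44e-05), 0 were called in zygote M in limma (Pfdn5 0.51, Pfdn6 0.38), and in two-cell M Pfdn6 rose (4.28) and Arl2 fell (-6.15). Of 9 tested tubulin-modifying enzymes 0 were called in the first 2 comparisons, and 6 fell in two-cell M, led by Sirt2 (-7.18), Tpgs2 (-5.10) and Svbp (-5.06), with a list median of -3.88. The two-cell M median was -1.17 over all tested genes and -2.55 over the other tubulins. It was -1.50 for the γ-tubulin complex and for the autoregulation genes, 0.13 for folding cofactors, -0.05 for assembly and stability factors and -1.13 for actin genes. Tpgs2 had log2 differences of -2.13 in MII and 0.07 in zygote M, and Tpgs1 of 0.68 and -4.03, both subunits of the polyglutamylase complex. Of 16 tested assembly and stability factors, Prc1, a midzone crosslinker, rose in MII (2.77, adjusted p = 0.0231). Tacc3, a spindle protein (-4.52, adjusted p = 9.95e-05), and Stmn1, which sequesters dimers (-2.36, adjusted p = 0.0457), fell in zygote M. In two-cell M Mapre2 (-4.85) and Tacc3 (-2.61) fell, as did Spast (-2.50) and Tacc2 (-2.14), which are named after their values were seen, and Map1lc3b rose (2.60). Actin genes served as a cytoskeletal comparison: of 21 tested, Actb fell in MII (-3.71), 0 were called in zygote M in limma (Pfn1 -0.22, Actb -0.54), and 6 fell in two-cell M, led by Arpc1b (-6.34), Arpc3 (-4.46) and Actg1 (-4.23). Where limma called 0 genes of a list, those with an unadjusted p under 0.05 were 1 of the 4 other tubulins and 2 of the 9 modifying enzymes from GV to MII, 1 of the 21 actin genes from zygote to zygote M, and 0 in the remaining such cases. The counts of called genes read against the shares of all genes called given above, 6.11%, 5.75% and 36.3%. Called higher were 3.36%, 3.24% and 8.13% of all genes, and called lower 2.75%, 2.51% and 28.1%. The 6 of 21 actin genes lower in two-cell M are near that last share.

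Defining oocyte transcripts were measured beside the tubulins as a check of the labelled cells. All 10 oocyte markers were above the floor in every group, and their summed polysome FPKM was 6207 ± 550 in GV, 4479 ± 607 in MII, 1924 ± 148 in zygote, 595 ± 137 in zygote M, 577 ± 39.6 in two-cell embryos and 124 ± 94.4 in two-cell M. Nocodazole-treated groups thus had lower maternal marker levels than their interphase groups in the same comparisons in which tubulins were lower, and the part of this in the tubulin values was not tested. The 10 markers of two-cell embryos did not single out that stage on polysomes, where they summed to 262 ± 68.9 FPKM in GV, 68.7 ± 14.0 in MII, 71.1 ± 6.66 in zygote, 178 ± 61.4 in zygote M, 168 ± 33.7 in two-cell embryos and 87.3 ± 55.2 in two-cell M. In the non-polysome libraries their sum was highest in two-cell embryos, at 523 ± 181. Markers of cumulus or granulosa cells (9 of 10 in the table) summed to at most 2.64 FPKM in the mean of any polysome group and to 35.1 FPKM in the highest library, a non-polysome two-cell one. Blood markers (5 of 8 in the table) reached 37.2 to 84.7 FPKM in two-cell polysome libraries, 24.4 to 42.5 in two-cell M polysomes and 99.7 to 162 in non-polysome two-cell libraries against 0.05 to 52.6 in non-polysome two-cell M. The 1 blood marker tested, Hba-a1, was called lower in two-cell M off polysomes (log2 difference -5.41), and the part of these markers in the two-cell values was not tested.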

How the data were processed

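RNA of the polysome and non-polysome fractions of 6 stages was sequenced by the authors as 150-bp paired-end reads. Per the submitters' processing notes and the study's methods, reads were trimmed with Trim Galore 0.4.1 and mapped to GRCm38 with STAR 2.5.3a. The authors deposited 1 table of normalized FPKM for 23125 genes, with a smallest value of 0.01 in every library. The methods name RefSeq genes, and the table carries another annotation. For 2 of the 38 samples, both from zygotes, no column was used here. Groups are the combinations of stage and fraction in the labels.

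The FPKM were put on the log2 scale without an offset, and limma 3.58.1 (R 4.3.3) estimated 12 group means from the 36 libraries together, using eBayes with a trend. Tests were two-sided and covered the 7967 genes whose geometric mean reached 0.1 FPKM, with Benjamini-Hochberg adjustment over all of them. A gene was called at an adjusted p under 0.05 and a fold beyond 2. Depth was estimated from the steps between low FPKM values. Between 39.4% and 58.2% of low values lay within 0.05 of a whole multiple of the step, so whole reads were not recovered and no count test was run. All 10 tubulins are named. Of each other list, up to 3 called genes with the largest difference are named per polysome M-phase comparison, or, where none was called, up to 2 with the highest mean. The 5 genes most like Tuba4a and Tubb4b were ranked by Pearson r. The members and lists were chosen with earlier results of these data known. The script was tested on simulated data. The alternatives were other offsets, filters, scalings and sets of libraries, replicate blocks, and leaving out each library. Figures and sequences were made with Python 3.11.15.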

Additional observations from a re-analysis of the deposited data

Results flagged for a closer look

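In 16 cases the M-phase change of a tubulin mRNA in the embryo differed from its change between GV and MII by limma's test of the difference of differences. In all 16 the embryonic change was below the meiotic change, so a value can come from a rise in meiosis as well as a fall in the embryo. All use the same MII and GV libraries of their fraction. Of all tested genes 9.51% were called on polysomes for the zygote and 23.5% for the two-cell embryo, and 24.3% and 30.2% off them, of which 5.06%, 18.7%, 20.8% and 25.8% of all genes were called lower. The median over all genes was itself below 0, at -0.67, -1.41, -1.60 and -2.00 in the same order. The M-phase embryos had been in nocodazole and the MII oocytes had not. The drug, the stage and the time in culture therefore cannot be told apart.

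For the zygote on polysomes they were Tubb4b (-5.33, adjusted p = 0.000935) and Tubb5 (-6.04, adjusted p = 0.0373). For the two-cell embryo on polysomes they were Tuba1a (-4.56, adjusted p = 0.0144), Tubb2b (-6.10, adjusted p = 0.0257) and Tubb3 (-6.49, adjusted p = 0.000527). For the zygote in the non-polysome fraction they were Tuba4a (-9.42, adjusted p = 0.00254), Tubb2a (-3.52, adjusted p = 0.0191), Tubb2b (-6.33, adjusted p = 0.0205), Tubb4b (-7.02, adjusted p = 1.73e-05), Tubb5 (-5.33, adjusted p = 0.0365) and Tubb6 (-4.98, adjusted p = 0.00669). For the two-cell embryo in that fraction they were Tuba4a (-9.22, adjusted p = 0.00215), Tubb2a (-9.08, adjusted p = 3.61e-07), Tubb3 (-6.95, adjusted p = 0.000161), Tubb5 (-5.56, adjusted p = 0.024) and Tubb6 (-10.10, adjusted p = 1.25e-06). Both Tuba4a values include the GV library at 0.0332 FPKM.

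With each library centred on its median gene 10 of the 16 calls were lost. On polysomes these were Tubb5 for the zygote (-5.34, adjusted p = 0.0598) and Tuba1a (-2.90, adjusted p = 0.127) and Tubb2b (-4.45, adjusted p = 0.106) for the two-cell embryo. Off polysomes they were Tubb2a, Tubb2b, Tubb5 and Tubb6 for the zygote (adjusted p of 0.0511 to 0.135) and Tuba4a, Tubb3 and Tubb5 for the two-cell embryo (adjusted p of 0.0642 to 0.614).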

How the results depend on the processing

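Counts of tubulins called are given here with the value of each alternative that moved them beyond 1.5 times. Except for fits to the libraries of 1 fraction and the gradient replicate block, no share of all genes called under an alternative is given. Those counts show how calls depend on the setting and are not set against other genes. A fit to the groups compared alone moved most counts: on polysomes to 6 (MII against GV, 0 in the fit to all libraries), 7 (zygote M against zygote, from 1), 2 (two-cell M against two-cell, from 4) and 7 (zygote M against MII, from 2), off polysomes to 2 (two-cell M against two-cell, from 5), for the difference from the meiotic change to 5 (zygote, from 2) and 5 (two-cell, from 3) on polysomes and 3 (two-cell, from 5) off them, for the change on against off polysomes to 2 (MII, from 0) and 0 (two-cell, from 2), and for polysome against non-polysome levels to 3 (GV, from 1), 3 (MII, from 0), 2 (zygote, from 0), 1 (two-cell, from 2) and 0 (two-cell M, from 3). A fit to the libraries of 1 fraction gave 5 (MII against GV), 4 (zygote M against zygote), 4 and 6 (zygote and two-cell differences from the meiotic change) and 5 (zygote M against MII) on polysomes, and 1 (zygote M against zygote) and 3 (zygote difference) off them. In the same order it called 14.5%, 11.9%, 20.2%, 36.6% and 22.1% of all genes on polysomes, and 5.06% and 15.5% off them. In both kinds of fit fewer libraries set the spread.

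Adding 1 to each FPKM gave 6, 4, 4, 5 and 5 in the polysome comparisons MII against GV, zygote M against zygote, the zygote and two-cell differences and zygote M against MII, 4 for zygote M against zygote off polysomes, 1 for the MII change on against off polysomes, and 4, 1 and 5 for polysome against non-polysome levels in GV, zygote M and two-cell M. Adding 0.1 gave 2, 2, 5 and 4 in MII against GV, zygote M against zygote, the two-cell difference and zygote M against MII, and 3 for the fractions in GV. Quantile normalization gave 5, 4, 4 and 5 in MII against GV, zygote M against zygote, the zygote difference and zygote M against MII, 1 for the MII change on against off polysomes, and 5 and 1 for the fractions in GV and zygote M. A mean of at least 1 FPKM gave 1 for MII against GV and 5 for the fractions in two-cell M, and no filter gave 1 for the zygote difference and 0 for the fractions in GV. Median centring, which sets the median gene of each library to the same level, gave 2 (two-cell M against two-cell), 1 and 1 (zygote and two-cell differences) and 3 (two-cell M against MII) on polysomes, 1 (zygote M against zygote) and 2 (zygote difference) off them, and 4 for the two-cell change on against off polysomes. Apart from the library sets and the centring, the cause was not tested. No share of all genes called is given for the offset, scaling and filter settings.

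Replicate letters are shared between stages without a stated link, and libraries of the same letter at other stages had mean correlations of residuals of 0.0205 on polysomes and 0.0176 off them. Libraries of the same letter and stage in both fractions may come from 1 gradient, which the labels do not state; their correlations averaged 0.0756 and were over 0.1 in 6 of 18 pairs. With the replicate letter as a replicate block, zygote M against zygote off polysomes gave 1 call, and a gradient replicate block gave 5 for the fractions in two-cell M. No other count moved beyond 1.5 times with either block.

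Leaving out 1 library at a time gave 1 to 3 calls for zygote M against zygote and 3 to 6 for two-cell M against two-cell off polysomes, 2 to 4 for the two-cell change on against off polysomes, 1 to 2 for the zygote difference and for zygote M against MII on polysomes, and 0 to 2 and 1 to 2 for the fractions in GV and two-cell. No share of all genes called is given for these fits either.

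Gene values under every alternative were followed for all tubulins in the 3 M-phase comparisons and the 2 differences on polysomes, and elsewhere for called tubulins. Of 792 such values under the other alternatives 13 changed sign, and of 726 with 1 library left out 17. Among called values it was Tuba1c off polysomes in two-cell M against two-cell, at 0.38 with median centring. The uncalled ones followed with median centring were Tubb2b in MII against GV at -0.0024, Tuba1b in zygote M against zygote at 0.024, Tuba4a in two-cell M against two-cell at 0.15, Tuba1a, Tuba1b and Tubb2a in the zygote difference at 0.67, 0.35 and 0.51, and Tuba1c, Tubb2a and Tubb5 in the two-cell difference at 0.18, 0.96 and 0.30. Over all 10 tubulins in all comparisons tried with centring, 32 of 210 values changed sign. Off polysomes these include Tuba1b in MII against GV (-0.056), Tuba1a, Tuba1b and Tuba1c in zygote M against zygote (0.70, 0.63 and 0.36), and Tuba1b, Tuba4a and Tubb5 in two-cell M against two-cell (3.6, 1.94 and 0.65), of which Tuba1b was then called. In the zygote difference Tuba1a was at 0.78 with quantile normalization, and with the replicate block Tuba1a was at 0.21 and Tubb2a at 0.034. With 1 library left out, the polysome values that changed sign, none of them called, ranged for Tuba1b from -0.22 to 0.19 (MII against GV), -0.89 to 0.018 (zygote M against zygote), -0.47 to 1.47 (two-cell M against two-cell), -0.80 to 0.10 (zygote difference) and -0.39 to 1.55 (two-cell difference), for Tubb2b from -0.21 to 0.46 (MII against GV), for Tubb4b from -0.041 to 0.56 (two-cell M against two-cell), and in the zygote difference for Tuba1a from -0.73 to 0.54 and for Tubb2a from -0.53 to 0.15.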
